A study of Mus musculus with 6 samples.

Results

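The genes described here are 10 genes by which lung fibroblasts and their subtypes are recognized, Thy1, Fap, Pi16, Dpt, Inmt, Npnt, Ly6a, Vim, S100a4 and Cygb. They were chosen by symbol, and all 10 were found among the 14870 genes of the deposited table. Fibroblasts were isolated from the lungs of TGFα mice, adults of both sexes carrying CCSP-rtTA, which the Clara cell-specific promoter drives in airway epithelium, and a TetO-controlled TGFα transgene that is switched on by doxycycline (Dox). The mice had been on Dox for 10 days, and the cells, grown in culture, were transfected with Aurkb siRNA (3 libraries) or with control siRNA (3 libraries) for 72 h. Both groups therefore carry the same alleles, the same Dox exposure and a transfection, and differ by the siRNA. Small interfering RNAs lead to the degradation of mRNAs that they pair with, and Aurkb encodes Aurora kinase B, a kinase of cell division. Whether the 3 libraries within a group stem from different animals or cultures is not stated, so that the p-values measure a spread that may be technical.

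Fibroblasts have no single defining marker, and are recognized by sets of genes. THY1 (CD90) and SCA-1, the product of Ly6a, sit on the cell surface through lipid anchors, and FAP is a membrane protease of activated fibroblasts. In mouse lung, Pi16 and Dpt mark the fibroblasts of the adventitia, the connective tissue around vessels and airways, whereas Inmt and Npnt mark those of the alveolar walls. Vimentin is the intermediate filament of mesenchymal cells, S100A4 (FSP1) a calcium-binding protein once used as a general fibroblast marker, and cytoglobin a heme protein found in fibroblasts and in stellate cells of the liver.

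Reads counted to genes numbered 20820596 to 27572833 in the Aurkb siRNA libraries and 29350227 to 30441954 in the control siRNA libraries. The deposited values per library carry no unit in their header, and from the values they were taken as RPKM, reads scaled by the length of the gene and by the size of the library. The whole reads behind them were recovered and divided by size factors, and are called normalized counts. With limma, 13906 genes that averaged 10 normalized counts or more in either group were tested on log2(normalized count + 1), where changes of weakly expressed genes appear smaller than they are. A call required a Benjamini-Hochberg adjusted p of at most 0.05 and a change of at least 1.5-fold. Aurkb itself had 37.4, 52.8 and 28.9 normalized counts in the Aurkb siRNA libraries, against 99.5, 107.8 and 133.6 in the control siRNA libraries, and was lower in every library. A first principal component with 64.1% of the variance separated the groups. A second, with 13.6%, set replicate 1 of both groups apart from replicates 2 and 3.

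Dpt, Fap and Cygb, 3 of the 10 genes, were called lower with Aurkb siRNA, and 0 were called higher (0 at an unadjusted p under 0.05 with limma, and 0 with voom). In all, 7.67% of the genes tested were called lower and 4.64% were called higher. The median log2 fold change of the 10 genes was -0.38, beside 0.00 over all genes tested. Of the 10 fold changes 9 were below 0, as were 6901 of the 13906 over all genes tested. Inmt, among the 9, reached the minimum of 10 through the control siRNA group alone (mean 10.3, beside 7.62 with Aurkb siRNA). Its sign is thus no independent evidence. The fold changes of Thy1, Pi16, Ly6a and Npnt were above 0 in a fit that left out a library. S100a4 was lower at an adjusted p of 0.00759 but by less than 1.5-fold, and 20.5% of all genes were lower at an adjusted p of at most 0.05 whatever the size. Thy1, Ly6a, Pi16, Inmt, Npnt and Vim were not called. In such bulk RNA, fewer cells of a type and less RNA per cell cannot be told apart.

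RefSeq promoters of GRCm38.p6, with 250 bases before and 50 bases after the first transcribed base, were at hand for 6 of the genes, Dpt, Inmt, Npnt, Pi16, S100a4 and Vim. Shown among these are Dpt, as the gene that differed most, S100a4, which was lower by less than 1.5-fold, and, as a contrast, Vim, which had the highest level and the smallest change, with the searched motifs in capitals. They are at chr1:164796413-164796712, chr3:90603520-90603819 and chr2:13574061-13574360, all on the plus strand.
Dpt: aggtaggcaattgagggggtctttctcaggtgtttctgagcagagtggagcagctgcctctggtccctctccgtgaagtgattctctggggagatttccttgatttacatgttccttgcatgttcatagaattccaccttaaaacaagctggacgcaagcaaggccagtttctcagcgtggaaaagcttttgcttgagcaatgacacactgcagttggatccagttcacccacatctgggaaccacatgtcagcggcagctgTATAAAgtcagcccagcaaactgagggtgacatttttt
S100a4: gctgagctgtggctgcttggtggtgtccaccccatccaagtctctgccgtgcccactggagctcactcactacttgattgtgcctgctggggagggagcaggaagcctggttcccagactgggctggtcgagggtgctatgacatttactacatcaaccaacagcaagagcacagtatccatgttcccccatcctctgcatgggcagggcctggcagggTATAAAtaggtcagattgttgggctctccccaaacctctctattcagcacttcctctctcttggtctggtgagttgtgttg
Vim: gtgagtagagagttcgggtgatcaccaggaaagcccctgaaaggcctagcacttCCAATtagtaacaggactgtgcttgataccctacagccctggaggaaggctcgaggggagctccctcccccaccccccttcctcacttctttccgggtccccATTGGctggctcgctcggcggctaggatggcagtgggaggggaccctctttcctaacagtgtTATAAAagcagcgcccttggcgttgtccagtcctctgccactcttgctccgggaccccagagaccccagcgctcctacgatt
On both strands, the TATA box was searched as TATAAA, the box named for CCAAT by these letters, the GC box as GGGCGG, the AP-1 motif as TGANTCA and the E-box as CACGTG. No letters overlapped between those found in these 3 promoters. The letters TATAAA stood 31 bases before the first transcribed base of S100a4 and 32 bases before that of Vim, while in Dpt they began at base 13 of the transcribed part. Of 32851 mouse promoters of this length, 13.62% held TATAAA. Vim also held CCAAT at 196 and, on the other strand, at 94 bases before the start, a motif in 37.41% of promoters. Of the promoters not printed, Inmt held TATAAA, Pi16 held CCAAT, and 1 of the promoters of Npnt held GGGCGG, found in 35.66%. TGANTCA (7.808% of promoters) and CACGTG (7.15%) were not among the letters of these windows. A match is a string of letters and not a known site.

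The 7-base words AACGTGT and ACGTGTA were looked for in the transcripts because an earlier look at these same libraries had picked them out among genes that were lower with Aurkb siRNA. A count of them is thus no independent evidence. Cygb alone of the 10 genes held either word in a 3' UTR (10% of them), as did 877 of the 12818 tested genes with a searched 3' UTR (6.842%), and 0 of the 10 held one in a coding sequence. The site in Cygb lies in its 3' UTR at chr11:116645741-116645767 (minus strand), and the coding sequence of Aurkb holds its own at chr11:69048225-69048252 (plus strand), both GRCm38 from GENCODE M21. The capitals mark the 9-base run that both share. Both stretches were cut around a searched word, so that 7 of these bases were shared by the choice of the sites. How many other genes share as long a run with Aurkb was not counted.
Cygb: ccccttggtcACGTGTACTgtcctgga
Aurkb: caaatttggaaACGTGTACTtggctcgg
The sequence of the siRNA was not analysed here, and the part of this run in the Cygb result was not tested. Of the 195 tested genes of the lists described below, 16 held either word in a 3' UTR (8.21%). Among these 16, 6 were called lower, 1 was called higher and 9 were not called, beside 7.67% lower and 4.64% higher over all genes tested. The words were picked among genes lower in these libraries, and the lists were chosen with earlier results known. This count is therefore no independent evidence either.

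Per transcript length, the 10 genes spanned a wide range, in the same order in both groups. Vim had 1142 ± 44.6 RPKM with Aurkb siRNA and 1133 ± 8.41 with control siRNA (SD, n = 3 libraries each), above 99.8% of the genes in the table. S100a4 followed at 139 ± 10.9 and 185 ± 24.7 RPKM, Npnt at 62.0 ± 5.48 and 63.5 ± 6.10, and Cygb at 32.7 ± 4.57 and 51.9 ± 1.89. At the low end, Pi16 had 0.671 ± 0.275 RPKM with Aurkb siRNA and 0.788 ± 0.307 with control siRNA, and Inmt 0.276 ± 0.118 and 0.371 ± 0.0937. Pi16 and Inmt, a marker each of the adventitial and the alveolar subtype, thus rested on few reads, 26 to 76 per library for Pi16 and 3 to 13 for Inmt. Within each group, every library of one gene in this order lay above every library of the next, except for Ly6a and Thy1, whose libraries overlapped in both groups.

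**Figure D1:**
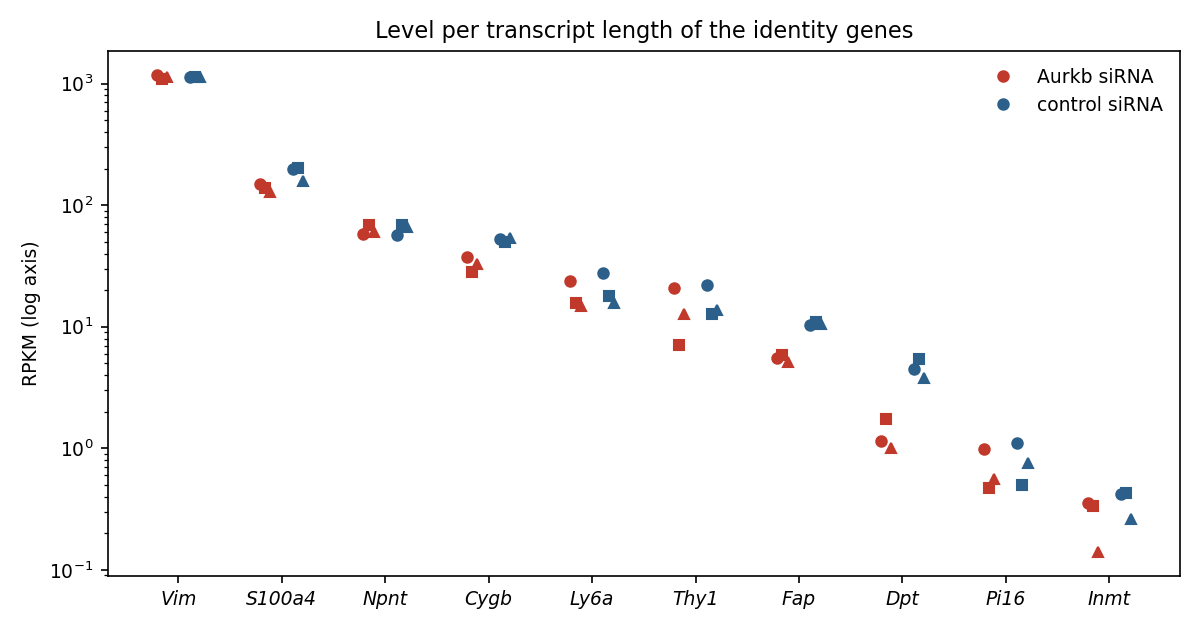
RPKM (log axis) of each gene in each library, Aurkb siRNA in red and control siRNA in blue, with circles, squares and triangles for replicates 1, 2 and 3. Vim lies highest at 1096 to 1185 RPKM and Inmt lowest at 0.141 to 0.433, and the points of Ly6a and Thy1 overlap.

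Dpt encodes dermatopontin, a small secreted matrix protein that binds decorin and takes part in the assembly of collagen fibrils. Its gene, Entrez gene 56429, spans 164796663 to 164824274 of chromosome 1 (GRCm38, as for all genes below). It had 49.9, 77.6 and 44.7 normalized counts in the Aurkb siRNA libraries, against 199.9, 240.5 and 168 in the control siRNA libraries. Every Aurkb siRNA library was below every control siRNA library. The means were 57.4 ± 17.7 with Aurkb siRNA and 203 ± 36.2 with control siRNA (SD, n = 3 each), which left 28.3% of the control level. The log2 fold change was -1.83 (standard error 0.22, limma adjusted p = 2.78e-04). Between libraries of replicates 1, 2 and 3 the log2 ratios were -2.00, -1.63 and -1.91, all past 1.5-fold.

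Fap encodes fibroblast activation protein, a serine protease of the cell membrane that cuts after proline (Entrez gene 14089, chromosome 2 from 62500936 to 62575509). Its normalized counts were 398, 429.6 and 377 with Aurkb siRNA and 766, 803 and 768 with control siRNA. The groups were far apart beside their spread, and the means were 402 ± 26.4 and 779 ± 20.8 (SD, n = 3 each). The log2 fold change of -0.96 (standard error 0.07, limma adjusted p = 2.78e-05) left 51.6% of the control level. Its nearest relative, Dpp4 (CD26), which lies 88621 bases from Fap on the same chromosome, had 4097 ± 948 normalized counts with Aurkb siRNA and 3066 ± 150 with control siRNA and was not called (log2 fold change 0.39, limma adjusted p = 0.0532). Of the 8 measured prolyl peptidases beside Fap, 0 were called with limma and 0 with voom, though 3 passed an adjusted p of 0.05 with changes under 1.5-fold and 4 an unadjusted p of 0.05, 2 in each direction.

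Cygb encodes cytoglobin, a globin that binds oxygen and nitric oxide (Entrez gene 114886, chromosome 11 from 116645595 to 116654504). It had 2289, 1787 and 2103 normalized counts in the Aurkb siRNA libraries, against 3335, 3137 and 3382 in the control siRNA libraries. No library of one group reached the other, and the means were 2059.6 ± 254 and 3284 ± 130 (SD, n = 3 each), or 62.7% of control. The log2 fold change was -0.68 (standard error 0.08, limma adjusted p = 3.35e-04). Without Aurkb siRNA replicate 2, in which Cygb was lowest, the log2 fold change was -0.58, under 1.5-fold, and the call was lost. Prcd overlaps the 5' end of Cygb on the other strand and had 23.1 ± 8.73 and 24.3 ± 3.45 normalized counts with Aurkb and control siRNA. Of the other globins, Ngb and Adgb were in the table, with 1 to 15 reads per library, and 0 were tested.

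S100a4 (Entrez gene 20198, chromosome 3 from 90603770 to 90606045) had 1980.2, 1899.5 and 1752 normalized counts with Aurkb siRNA and 2706, 2709 and 2129 with control siRNA. The groups did not overlap, though the lowest control siRNA library, replicate 3, was close to the Aurkb siRNA libraries. The log2 fold change was -0.41 (standard error 0.09, 95% interval -0.63 to -0.20, limma adjusted p = 0.00759). Dpt, Fap, Cygb and S100a4 were thus the 4 genes whose groups did not overlap, each with every Aurkb siRNA library below, as were 26.2% of all genes tested, while 26.0% had every Aurkb siRNA library above. For each of the 4, the exact two-sided permutation test gave p = 0.1, below which a design of 3 against 3 cannot go.

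**Figure D2:**
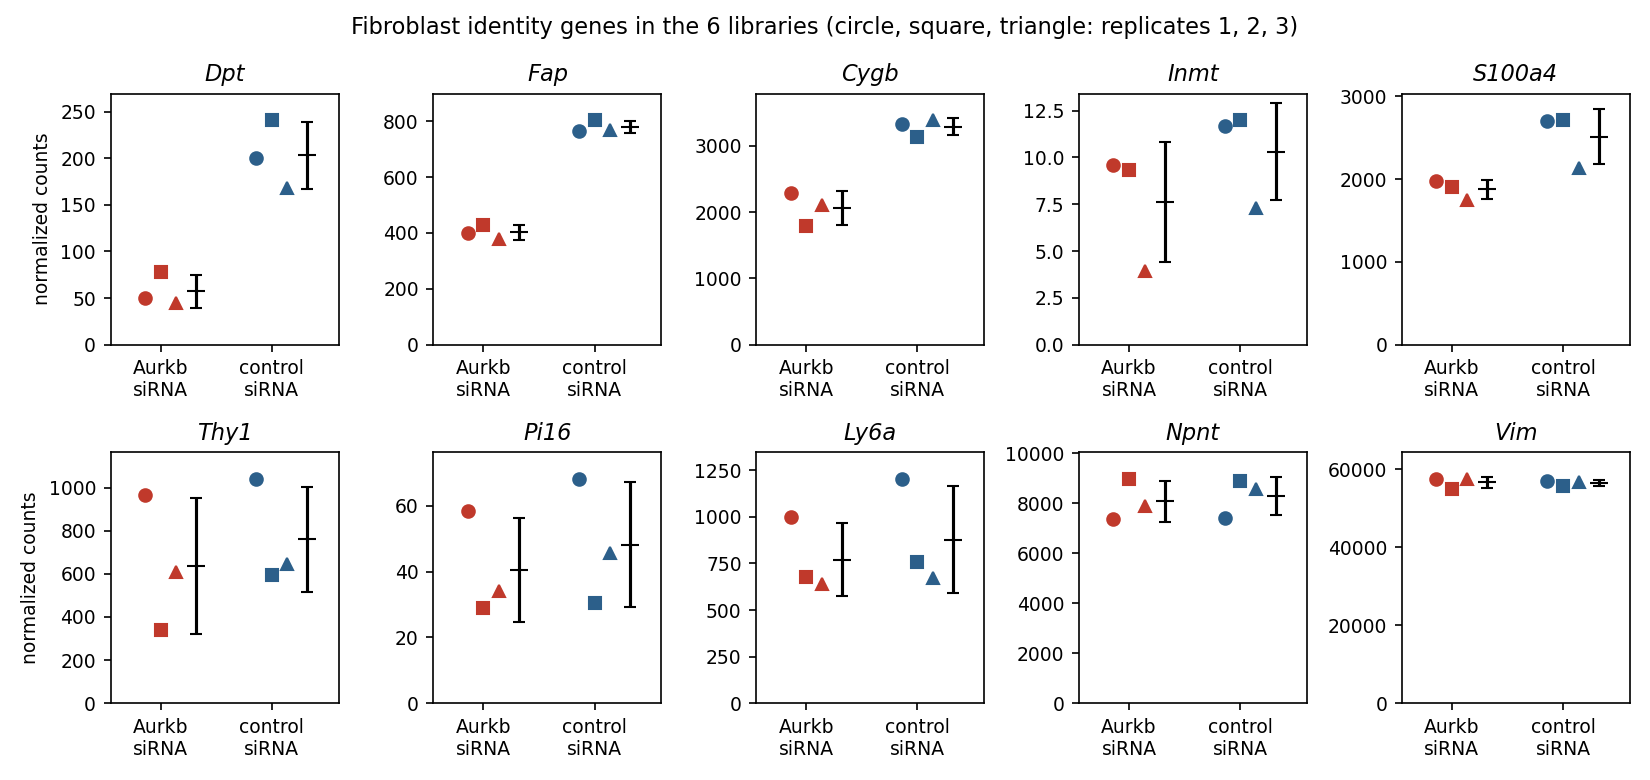
Normalized counts of the 10 genes in each library (axes start at 0), with Aurkb siRNA in red at the left and control siRNA in blue at the right of each panel, and the mean with its SD in black. Dpt, Fap, Cygb and S100a4 have no overlap between the groups, and Thy1, Pi16 and Ly6a have their highest point in replicate 1 (circles) of both groups.

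The surface genes Thy1 and Ly6a varied more between replicates than between siRNAs. Thy1 (Entrez gene 21838, chromosome 9 from 44043384 to 44048579) had 963, 338.5 and 607 normalized counts with Aurkb siRNA and 1039.9, 594 and 645 with control siRNA. Replicate 1 was the highest of either group, and the groups overlapped. The log2 fold change was -0.34 (standard error 0.34, 95% interval -1.10 to 0.43, limma adjusted p = 0.461). With the replicate number as a block the adjusted p from limma was 0.0390, at the same fold change, which stayed under 1.5-fold. Its size rested on replicate 2, in which the log2 ratio of Aurkb siRNA to control siRNA was -0.81, beside -0.11 and -0.09 in replicates 1 and 3. Without Aurkb siRNA replicate 2 the log2 fold change was 0.055.

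Ly6a (Entrez gene 110454, chromosome 15 from 74994877 to 74998031) had 998, 676 and 639 normalized counts with Aurkb siRNA and 1204, 759 and 673 with control siRNA. It was again highest in replicate 1 of both groups. The log2 fold change of -0.17 (standard error 0.22, 95% interval -0.67 to 0.33) had a limma adjusted p of 0.572, and of 0.0379 with the replicate number as a block. In each of the 3 replicates the Aurkb siRNA library was below the control siRNA library, at log2 ratios of -0.27, -0.17 and -0.07. Without control siRNA replicate 1 the log2 fold change was 0.080.

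Pi16, a peptidase inhibitor of the CAP protein family (Entrez gene 74116, chromosome 17 from 29318796 to 29328903), had 58.5, 29.0 and 34.2 normalized counts with Aurkb siRNA and 68.1, 30.4 and 45.8 with control siRNA. Like Thy1 and Ly6a it was highest in replicate 1 of both groups, and the groups overlapped (log2 fold change -0.23, 95% interval 50.1% to 145% of the control level, limma adjusted p = 0.618). Without control siRNA replicate 1 the log2 fold change was 0.053. Thy1, Pi16 and Ly6a exceeded the mean of replicates 2 and 3 in replicate 1 by 1.09, 0.87 and 0.60 on the log2 scale with Aurkb siRNA and by 0.75, 0.85 and 0.75 with control siRNA. A difference of over 0.5 in both groups was found for 3 of the 10 genes (30%) and for 283 genes (2.04%) of those tested. What sets replicate 1 apart is not given in the sources used here, and was not tested.

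**Figure D3:**
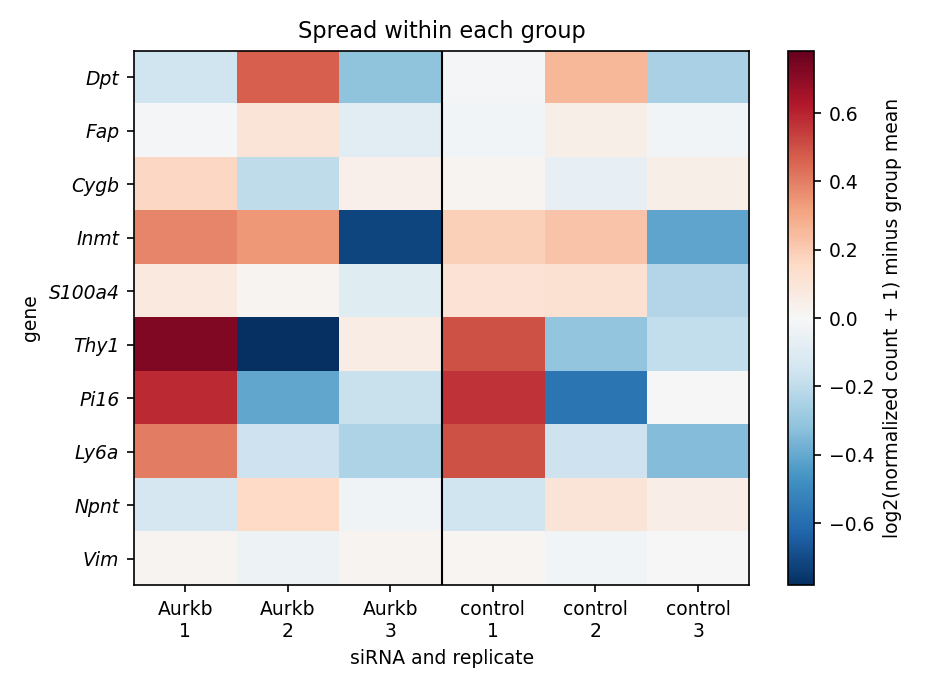
Deviation of each library from the mean of its own group, as log2(normalized count + 1), for the 10 genes (rows, in order of fold change) in the Aurkb siRNA libraries at the left and the control siRNA libraries at the right. Thy1, Pi16 and Ly6a are red (above the mean) in replicate 1 of both groups, while Fap and Vim are pale in all 6 libraries.

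Inmt encodes indolethylamine N-methyltransferase, an enzyme that methylates tryptamine and related amines (Entrez gene 21743, chromosome 6 from 55170627 to 55174990). It had 9.59, 9.32 and 3.94 normalized counts with Aurkb siRNA and 11.7, 12.0 and 7.32 with control siRNA, from at most 13 reads a library. Its mean reached the minimum of 10 for testing through the control siRNA group alone. The Aurkb siRNA library was the lower in each replicate, yet the groups overlapped, and the log2 fold change of -0.45 had a 95% interval of -1.40 to 0.51 (limma adjusted p = 0.433). Of the 6 other measured methyltransferases of small molecules, Hnmt, which inactivates histamine, was called lower (14.4 ± 3.44 and 26.7 ± 5.21 normalized counts with Aurkb and control siRNA; log2 fold change -0.85, limma adjusted p = 0.0364), a call that was kept in 1 of 6 fits that each left out a library.

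Npnt encodes nephronectin, a matrix ligand of integrin α8β1 (Entrez gene 114249, chromosome 3 from 132881745 to 132950291). It had 7344, 8967 and 7889.9 normalized counts with Aurkb siRNA and 7423, 8869 and 8555 with control siRNA. The values of the groups interleaved, and the log2 fold change was -0.04 with a 95% interval of -0.24 to 0.16 (limma adjusted p = 0.752). Genes of its receptors and its partners in basement membranes were measured beside it. Of 8 tested, 2 were lower and 0 higher (1 higher at an unadjusted p under 0.05 with limma, 0 with voom and 1 in the blocked fit). Itgav, the αV subunit of integrins, was lower at 2859 ± 243 normalized counts with Aurkb siRNA and 5757 ± 328 with control siRNA (log2 fold change -1.01, limma adjusted p = 2.29e-05). Fras1, an extracellular matrix protein, was also lower (log2 fold change -0.59, called in 3 of 6 fits that each left out a library), while Itga8, the α8 subunit, had 48.6 ± 5.99 RPKM and 52.1 ± 7.05 RPKM with Aurkb and control siRNA and was not called.

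Vim (Entrez gene 22352, chromosome 2 from 13574311 to 13582826) had 57525, 55047 and 57404 normalized counts with Aurkb siRNA and 57005, 55735 and 56656 with control siRNA. The libraries differed by little, with coefficients of variation of 2.47% and 1.16%, and the log2 fold change of 0.00 had a 95% interval of -0.15 to 0.16 (limma adjusted p = 0.965). On this scale the 95% interval of the Vim level with Aurkb siRNA thus ran from 90.1% to 112% of the control level. With quantile normalization the log2 fold change was 0.096, and Vim was again not called. Of the 17 other tested genes of intermediate filaments, lamins and their linkers, Krt19, a keratin of simple epithelia and mesothelium, was higher (171 ± 24.5 and 86.3 ± 26.2 normalized counts with Aurkb and control siRNA; log2 fold change 1.01). Lmnb2, lamin B2, was lower (192 ± 14.9 and 314 ± 16.9, log2 fold change -0.71). Des, desmin, had 126 ± 35.2 RPKM with Aurkb siRNA and 109 ± 27.2 RPKM with control siRNA and was not called.

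**Figure D4:**
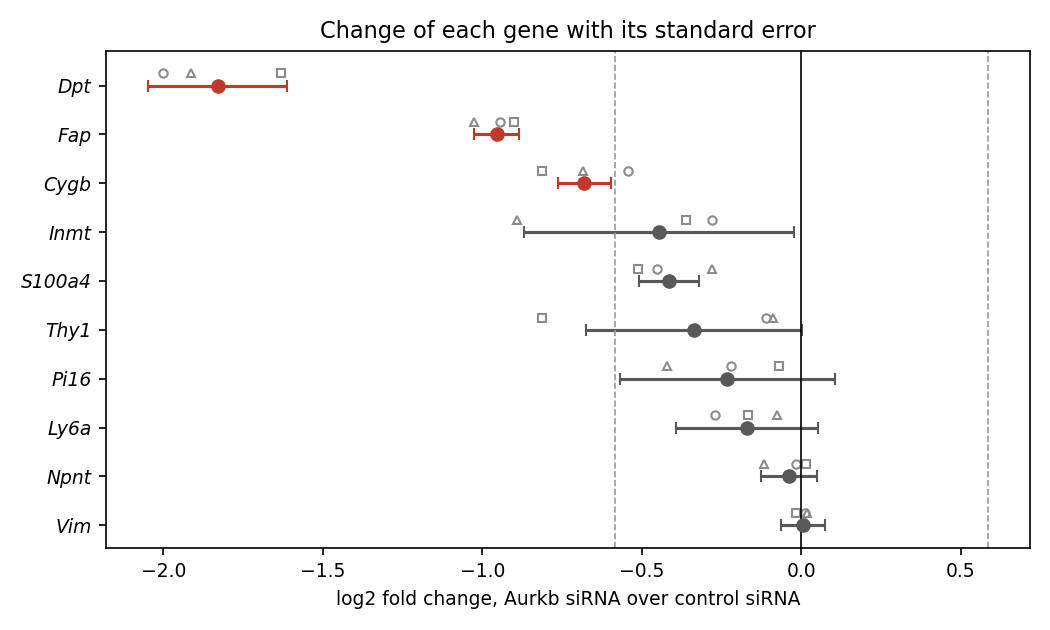
Log2 fold change of each gene, Aurkb siRNA over control siRNA, with its standard error from limma (filled circles, red where called lower), and the log2 ratio of the libraries of each replicate number (open circles, squares and triangles for replicates 1, 2 and 3). The dashed lines mark 1.5-fold, and Dpt (-1.83), Fap (-0.96) and Cygb (-0.68) lie beyond the left one.

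In the families of S100a4 and Pi16 (S100 list and CAP family) the called genes were higher, while those in the LY6 family of Ly6a went both ways. Of 11 tested genes of the S100 list, 3 were called higher and 0 lower (2 lower at an unadjusted p under 0.05 with limma, and 0 with voom). S100a8, one of the calgranulins of neutrophils, had 30.6 ± 1.59 normalized counts with Aurkb siRNA and 4.25 ± 2.09 with control siRNA (log2 fold change 2.69, limma adjusted p = 7.73e-04). Its partner S100a9 had 25, 17 and 14 reads with Aurkb siRNA and 0, 1 and 1 with control siRNA. The third, S100pbp, encodes a protein that binds an S100 protein and is not itself one. S100a8 and S100a9 reached the minimum of 10 through the Aurkb siRNA group alone. Under the stricter filter of 50 counts, which leaves out both S100a8 and S100a9, 1 gene of the list was called higher. Of the 11 fold changes, 6 were below 0 and 5 above. S100a6, 6849 bases from S100a4, was the highest of the family at 1578 ± 84.0 RPKM with Aurkb siRNA and 1246 ± 173 RPKM with control siRNA, and its log2 fold change of 0.34 was under 1.5-fold (limma adjusted p = 0.0177), so that its fold change and that of S100a4 had opposite signs.

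Of 10 tested genes of the LY6 family, Plaur, the urokinase receptor, was higher (805 ± 48.1 normalized counts with Aurkb siRNA and 474 ± 39.6 with control siRNA; log2 fold change 0.77, limma adjusted p = 1.44e-04). Gpihbp1, which carries lipoprotein lipase on endothelium, and Lypd1 were lower (log2 fold changes -0.74 and -0.59), and these calls were kept in 3 and 2 of 6 fits that each left out a library, with 0 of the family lower without Aurkb siRNA replicate 2 or control siRNA replicate 2. Ly6e and Ly6c1, neighbours of Ly6a, had 29.5 ± 4.75 and 1.32 ± 0.488 RPKM with Aurkb siRNA and 32.4 ± 4.25 and 1.30 ± 0.466 RPKM with control siRNA, and were not called. The LY6 and S100 genes are related copies, and how reads shared between copies were counted is not given in the sources used here. In the CAP family of Pi16, Glipr1 was higher (110 ± 42.6 and 50.5 ± 8.42 normalized counts with Aurkb and control siRNA, log2 fold change 1.05, limma adjusted p = 0.0107). The other 4 tested were not called, though 3 genes were higher without Aurkb siRNA replicate 1. Of the 5 fold changes of this family, 4 were above 0 and 1 below. Gene models also overlap Dpt (Gm32569, antisense), Pi16 (AC162182.1, antisense) and S100a4 (Gm42674, same strand), and without a stated strand setting their reads cannot be told apart.

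Dpt and its binding partners were compared next. Of 11 tested genes whose products bind dermatopontin or act with it, 2 were lower and 0 higher (1 higher at an unadjusted p under 0.05 with limma, and 0 with voom), with a median log2 fold change of -0.09. Dcn, decorin, had 28089.7 ± 5985 normalized counts with Aurkb siRNA and 58901 ± 13369 with control siRNA (log2 fold change -1.07, limma adjusted p = 0.00152). Tnxb, tenascin X, had 2491 ± 245 and 4848 ± 726 normalized counts (log2 fold change -0.95, limma adjusted p = 1.93e-04). Over the 6 libraries, the genes with a pattern most like that of Dpt were Isoc2a, Ndn, Lyrm2, Get4 and Slc2a10, with Pearson correlations of 0.999, 0.998, 0.997, 0.996 and 0.996 of log2(normalized count + 1). These values describe 6 points that fall into 2 groups, so that they mainly reflect the difference between the groups. On the chromosome, the nearest protein-coding gene on one side of Dpt is Atp1b1, 338308 bases away, a subunit of the sodium pump, which had 1184 ± 281 and 3363 ± 304 normalized counts with Aurkb and control siRNA (log2 fold change -1.53, limma adjusted p = 1.16e-04).

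Other genes of fibroblasts and their subtypes were set beside the 10. Of 20 general fibroblast genes, 3 were lower and 1 higher (median log2 fold change -0.19). The shares to set beside this list, those above and those below are 7.67% lower and 4.64% higher over all genes tested (median 0.00). In lists this short, a few calls can lie near these shares, and no list was tested against them. Pdgfra, the PDGF receptor α, had 13952 ± 949 normalized counts with Aurkb siRNA and 26626 ± 1279 with control siRNA (log2 fold change -0.93, limma adjusted p = 2.73e-05). The proteoglycans Lum (-1.81) and Dcn (-1.07) were lower as well, and Fstl1, a secreted glycoprotein, was higher (0.79). Col1a1 had 1777 ± 203 RPKM with Aurkb siRNA and 1758 ± 243 RPKM with control siRNA and was not called.

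Of 26 adventitial genes, 6 were lower and 1 higher (median -0.28). Cd34, a surface sialomucin, fell to 541 ± 54.1 normalized counts with Aurkb siRNA, against 1329 ± 121 with control siRNA (log2 fold change -1.30, limma adjusted p = 2.54e-05). Col14a1 (-0.99) and Igfbp6 (-0.60) were lower too, while Gfpt2, an enzyme of hexosamine synthesis, was higher (0.81). Without control siRNA replicate 1, 2 adventitial genes were called lower, and Igfbp6 lost its call without Aurkb siRNA replicate 2 or control siRNA replicate 1.

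Of 16 tested alveolar genes, 5 were lower and 2 higher (median -0.28). Mettl7a1 (-0.85) and Scn7a (-0.83), a sodium channel, and Ces1d (-1.34), a carboxylesterase, were lower. Fgf10, a growth factor for alveolar epithelium, was higher at 2689 ± 360.0 normalized counts with Aurkb siRNA and 1599.7 ± 200.5 with control siRNA (log2 fold change 0.75, limma adjusted p = 8.91e-04), as was the chemokine Cxcl14 (1.10). Neither subtype list was thus called in one direction throughout. Of 14 fibrotic and myofibroblast genes, 4 were higher and 2 lower (median 0.35), with Inhba (0.95), a subunit of activins, and Tagln (0.81) and Acta2 (0.66), proteins of the contractile apparatus, higher, and Postn, periostin (-0.97), and Sfrp2 (-1.43), a WNT antagonist, lower. The call of Acta2 was lost without Aurkb siRNA replicate 2. Without Aurkb siRNA replicate 2 or 3, 1 gene of this list was lower. The number of its genes called higher ran from 3 to 6 when a library was left out.

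Of 17 other surface antigens by which mesenchymal cells are sorted, 5 were lower and 3 higher (median -0.24). Vcam1, an adhesion molecule, had 4924 ± 539.9 normalized counts with Aurkb siRNA and 9188 ± 742 with control siRNA (log2 fold change -0.90, limma adjusted p = 9.21e-05). The tetraspanin Cd81 (-0.65) and Mcam (-0.95), also a marker of pericytes and endothelium, were lower. Itga5, the integrin α5 subunit, was higher at 8973 ± 1920 and 4261 ± 239 normalized counts with Aurkb and control siRNA (log2 fold change 1.06, limma adjusted p = 2.63e-04), as were Cd44, the hyaluronan receptor (0.61), and Plaur. The call of Cd44 was lost without Aurkb siRNA replicate 2.

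**Figure D5:**
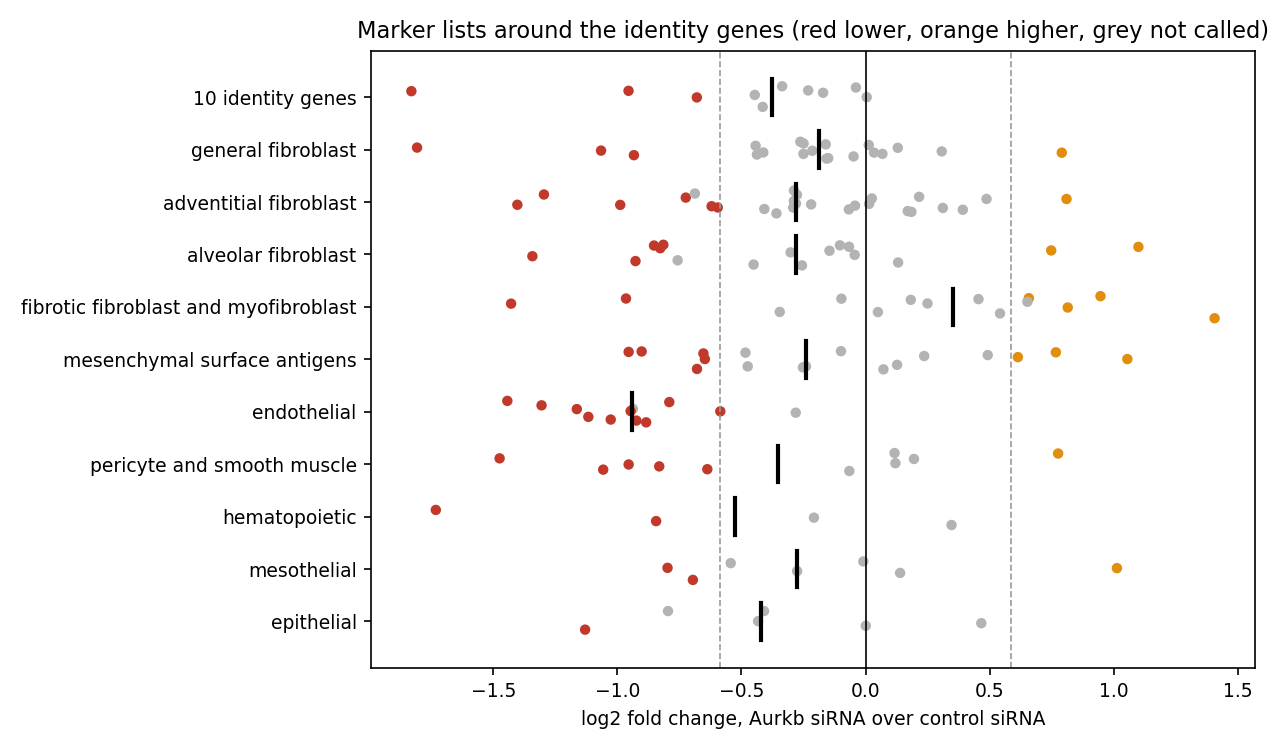
Log2 fold change, Aurkb siRNA over control siRNA, of each tested gene (points) of the 10 identity genes and of lists of markers (rows), with the median of each list as a black bar and 1.5-fold as dashed lines. The endothelial list has its median at -0.94 with 10 of 12 genes called lower, while the fibrotic and myofibroblast list has its median at 0.35.

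Markers of other cell types moved beside the identity genes. Ly6a is also expressed by endothelial cells in the mouse, Thy1 by some blood cells and Vim by both. Of 12 endothelial markers, 10 were lower and 0 higher (0 higher at an unadjusted p under 0.05 with limma, and 0 with voom), among them Kdr, Emcn, Esam and Pecam1 (log2 fold changes -1.44, -1.16, -0.79 and -1.12), and their summed level was 3507 to 4299 normalized counts with Aurkb siRNA and 6833 to 8850 with control siRNA. Of 17 hematopoietic markers, 7 were in the table and 4 were tested, of which Cd68 and Lyz2 were lower (log2 fold changes -1.73 and -0.84), Lyz2 not without control siRNA replicate 2 or 3. Their sum was 507 to 674 with Aurkb siRNA and 1149 to 1235 with control siRNA, and the pan-leukocyte marker Ptprc had 4 to 6 reads per library with Aurkb siRNA and 2 to 5 with control siRNA. Among 10 markers of pericytes and smooth muscle, 5 were lower, with Abcc9 at -1.47, and Cnn1, calponin, was higher (0.78, a call kept in 2 of 6 fits that each left out a library), with sums of 13512 to 22730.3 and 13439 to 18482. Among 7 markers of mesothelium, lower calls were made for Upk1b and Lrrn4 (-0.80 and -0.70) and a higher one for Krt19, with sums of 18320.5 to 33088 and 31947 to 37519. In all, 1 of the 7 was called lower without Aurkb siRNA replicate 2. Of 6 tested epithelial markers, Sftpc was lower (-1.13), with sums of 536 to 1189.7 and 585 to 939.5, and 2 were called lower without Aurkb siRNA replicate 1 or control siRNA replicate 3. The part of these other cells in the falls of Dpt, Fap, Cygb and S100a4, and of list genes such as Cd34, was not tested.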

How the data were processed

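RNA of 6 libraries of mouse lung fibroblasts, 3 with Aurkb siRNA and 3 with control siRNA, was analysed. Tools named in the submitters' processing notes are TopHat, DESeq, bcl2fastq and CASAVA 1.8, and the genome is mm10. The annotation, counter and strand setting: not given in the sources used here. RPKM values of each library, a unit inferred from the values, were deposited by the authors together with signal values, group means of counts scaled by DESeq size factors. The deposited columns of the authors' own comparison (fold values, their log2 and p-values), and a second table of genes selected by them, were not used.

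Whole reads were recovered from both kinds of value (100% whole, largest deviation 2.6e-08, tolerance 0.001) and divided by the size factors. The fit of limma 3.58.1 (R 4.3.3, with trend, pseudocount 1) covered genes averaging 10 normalized counts or more in either group, and was tested on simulated data. Alternatives were the replicate block, pseudocounts of 0.5 and 5, other filters, voom, other scalings, log2(RPKM + 1) and leaving out each library. Libraries of the same replicate number deviated together (correlations of 0.395, 0.173 and 0.214, against -0.243 to 0.049 for different numbers), so that the numbers, taken from the labels, were treated as pairing the libraries in the block.

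The 10 genes, the 19 lists around them and the 7-base words were chosen with earlier results of these data known, so that no p-value over them alone is given. Named genes were the 10, Aurkb, up to 4 called genes of each list with the smallest p and any called gene that went against the rest, relatives with their RPKM, and the 5 genes most like the one with the largest change. Atp1b1, Prcd, Ptprc and S100a6 as a neighbour were named after their values were seen. Names and coordinates came from RefSeq GRCm38.p6 (14853 genes matched) and transcripts from GENCODE M21. Python 3.11.15 was used with numpy 2.4.6, pandas 2.3.3, matplotlib 3.10.9 and scipy 1.17.1. The other experiments of the study were not analysed here.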

Additional observations from a re-analysis of the deposited data

How the results depend on the processing

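Dpt and Fap were called lower under all 15 alternatives, with log2 fold changes of at least 1.28 and 0.84 in size, and Cygb under 14 of 15, the exception being the fit without Aurkb siRNA replicate 2. The number of the 10 genes called lower was 3 with the replicate block and under every other alternative but that one, and ran from 2 to 3 when a library was left out, while 0 were called higher throughout. The replicate block changed no call of these 10 genes. It gave 1171 lower and 694 higher genes among all tested, beside 1067 and 645 without it, and leaving out a library gave 898 to 1113 and 575 to 633. On log2(RPKM + 1) with a mean RPKM of at least 1, 531 genes were lower and 311 higher among 11666 tested, and Inmt and Pi16 were not tested, as with a mean of at least 50 counts. Inmt fell under the minimum of 10 without control siRNA replicate 1 or 2. Signs turned for genes that were not called. When a library was left out, the log2 fold change of Thy1 ran from -0.70 to 0.055, above 0 without Aurkb siRNA replicate 2. That of Pi16 ran from -0.52 to 0.053 and that of Ly6a from -0.37 to 0.080, both above 0 without control siRNA replicate 1. That of Npnt ran from -0.12 to 0.026 and that of Vim from -0.0064 to 0.025. Of 570 counts over lists and alternatives, 515 stayed within 1.5 times the first count and 55 moved further. The cause of these moves was not tested. The 515 include counts that were 0 throughout, such as those of the globin list, of which 0 genes were tested and no move was possible. Inmt rests on 3 to 13 reads a library and Pi16 on 26 to 76.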
